A study of Arabidopsis thaliana with 4 samples.

Results

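Root cells of Arabidopsis thaliana that carried transcripts of the Casparian strip machinery were described from droplet single-cell RNA libraries. A cell barcode was a member when at least 3 of 7 genes had a UMI (unique molecular identifier, 1 counted transcript) and their summed level was at least 500 CPM, that is UMIs per 1000000 UMIs of the barcode. Among the 7 selecting genes were CASP1 (AT2G36100), CASP2 (AT3G11550), CASP4 (AT5G06200), CASP5 (AT5G15290), ESB1 (AT2G28670) and PER64 (AT5G42180). Eligible barcodes had at least 2000 UMIs and at most 10% of them from mitochondrial and plastid genes. Of 24258 eligible barcodes 1586 were members, and the tables held 41823 barcodes in all.

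The study made 1 library from each of 4 reporter lines, whose labels name no other allele or treatment. PET111 is an enhancer trap line whose reporter row is YFP, and the lines pSCR:GFP, pWER:GFP and pCORTEX:GFP are named for promoters that drive GFP. Primary root tips were cut 4 to 5 days after germination and turned into protoplasts, cells without walls, by wall-digesting enzymes, and transcripts were tagged at their 3′ ends. Every line is its own batch in the labels, which means that effects of line and of batch cannot be told apart, and no test was made between lines.

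The endodermis is the innermost layer of the root's ground tissue and surrounds the vasculature. Its cells lay down the Casparian strip, a ring of lignin in the wall that seals the space between neighbouring cells, and many of them later coat their surface with the polyester suberin. CASP proteins form a membrane platform at the site of the strip, to which peroxidases such as PER64 and dirigent proteins such as ESB1 are brought, and the transcription factor MYB36 switches this programme on.

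Values per library are always given by batch number, with pWER:GFP as 1, pCORTEX:GFP as 2, PET111 as 3 and pSCR:GFP as 4. Members numbered 245, 660, 312 and 369, which were 3.85%, 8.74%, 8.87% and 5.40% of the eligible barcodes of each library. The exact Clopper-Pearson 95% intervals of these shares ran from 3.39% to 4.35%, 8.11% to 9.40%, 7.95% to 9.86% and 4.88% to 5.97%, and cover counting error only. The share was lowest in pWER:GFP, while the intervals of pCORTEX:GFP and PET111 overlapped. Libraries held between 160953229 and 306361336 UMIs, and the median depth was 10594, 20156, 14318 and 7956 UMIs in members and 10753, 13910.5, 15496 and 9639 UMIs in the other eligible barcodes. In PET111 3441 of 9745 barcodes had fewer than 2000 UMIs and 2788 exceeded the organelle limit, so fewer barcodes were eligible there. No barcode sequence of a member recurred among the members of another library, although 182 sequences were shared between pairs of libraries. Doublets were not removed, and 1, 8, 9 and 2 members also met the cortex rule and 0, 2, 3 and 4 the xylem rule used below.

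The 7 selecting genes made up 1.93%, 3.20%, 4.30% and 1.87% of all UMIs of members and 13.3, 27.2, 24.7 and 27.2 CPM in the other eligible barcodes. These values chose the members and carry no test. Members held 97.2% to 98.9% of the UMIs of these genes in each library. All 7 genes were detected in 126, 372, 196 and 198 members, and no more than 3 in 40, 106, 51 and 56. CASP1 had a UMI in 92.7%, 93.8%, 95.2% and 93.8% of members, against 9.09%, 18.1%, 31.1% and 9.09% of xylem barcodes, which are not known to make it and had median depths of 5916, 10706, 6071 and 5857 UMIs. Its level was 8778, 14717, 18045 and 7689.6 CPM in members, against 6.99, 10.2, 42.0 and 8.16 CPM in xylem barcodes.

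The summed level of the selecting genes spread widely within each library. Its median over members was 9679, 8824, 15748 and 9482 CPM, its lowest values lay between 506 and 539 CPM, and the highest cells devoted 16.6%, 17.5%, 18.4% and 18.5% of their UMIs to the 7 genes. Just inside the threshold, 6, 22, 9 and 2 members had a sum of 500 to 600 CPM, and just outside it 6, 13, 16 and 6 barcodes with at least 3 of the genes had 400 to 500 CPM. A further 51, 143, 56 and 84 barcodes passed 500 CPM on 2 genes or fewer.

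**Figure D1:**
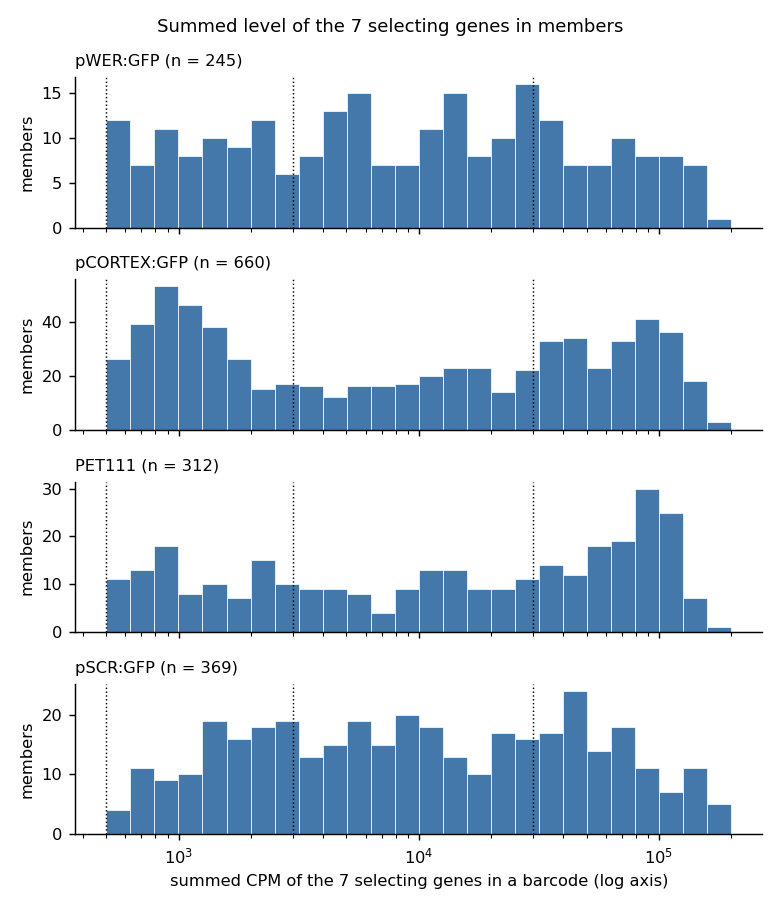
Number of members (y axis) by the summed CPM of the 7 selecting genes in the barcode (x axis, log scale), 1 panel per library. Dotted lines stand at 500, 3000 and 30000 CPM, the selection threshold and the borders of the ranges used below, and members fill all 3 ranges in every library.

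The label was checked against markers that the selection did not use. MYB36 and SCR, which mark the endodermis, were higher in members (values below). Summed levels of root hair markers were 3.81 to 92.8 CPM in members and 83.3 to 149.8 CPM in the other barcodes over the 4 libraries. For non-hair epidermis markers the range was 4.23 to 18.0 CPM in members and 42.0 to 164 CPM elsewhere, for xylem 7.17 to 67.0 CPM in members and 107 to 149.9 CPM elsewhere, for root cap 19.0 to 31.2 CPM in members and 81.7 to 107 CPM elsewhere, and for dividing cells 3.98 to 14.9 CPM in members and 32.0 to 56.8 CPM elsewhere. These 4 pairs of ranges did not overlap, whereas those of root hair, phloem and cortex did. The cortex markers summed to 1.91 to 87.4 CPM in members and 22.2 to 68.7 CPM elsewhere. Of these 4 genes 2 were lower in members and 2 neither in the test below. The cortex gene AT1G62500 had 0 UMIs in members, but also 0 in the cortex barcodes used below. The phloem markers summed to 1.75 to 9.60 CPM in members and 6.96 to 51.4 CPM elsewhere.

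Members were first set against all other eligible barcodes of the same library, to ask which further genes these cells express. UMIs were summed over members and over the other barcodes within each library, and the 8 sums were fitted with edgeR with the library as a block. A gene was called higher or lower when the adjusted p was under 0.05 and the fold at least 2 in size. Of 20562 genes tested 3195 (15.5%) were called higher in members and 4578 (22.3%) lower. The selecting genes were left out of the test but not of the totals, and the fitted log2 folds lie about 0.48 above the plain ratio of CPM because of the scaling by TMM (the members' scaling factor was lower, a log2 difference of -0.48). In the later comparisons this difference was -0.45 against SCR-positive, 0.06 against cortex and -0.26 against xylem barcodes, -0.27 in the suberin split and -0.38 between the ranges, so a small fold can differ in sign from the ratio of the means. Nothing in the labels says that the libraries came from separate plantings, so p-values measure the spread between these 4 libraries. The fit also rests on cells that were picked by genes in the same tables, so the folds describe the picked cells.

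Stress genes were higher in members too, with a sum of 1662 to 5166 CPM in members and 655 to 2962 CPM elsewhere over the libraries, and 7 of the 8 listed were called higher. The jasmonate repressor JAZ10 (AT5G13220) had 543, 86.6, 114 and 351 CPM in members and 144, 14.7, 14.6 and 168 CPM in the other barcodes (log2 fold 2.61 ± 0.36 (SE), edgeR adjusted p = 0.00177). The chaperone HSP101 (AT1G74310) had 129.6, 32.0, 20.0 and 153 CPM in members and 13.0, 19.5, 11.7 and 13.7 CPM in the other barcodes (log2 fold 2.57 ± 0.56 (SE), edgeR adjusted p = 0.00839). In thinned barcodes the log2 fold of HSP101 was 1.08 and its call was lost. JAZ10 was highest in the pWER:GFP and pSCR:GFP libraries in both kinds of barcode. The part of stress in the other results was not tested.

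The remaining Casparian strip genes were mostly far higher in members. Of a list of 23 such genes 21 had enough UMIs for the test, 15 were called higher in members, against the background of 15.5%, 1 was lower and 5 were neither. Their median log2 fold was 5.92, beside -0.20 over all genes tested. Together with the selecting genes the list took 4.07%, 5.70%, 7.49% and 3.98% of the UMIs of members, and 0.117%, 0.0853%, 0.0556% and 0.166% of those of the other barcodes.

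Of the regulators, MYB36 (AT5G57620) had 1172, 1060.2, 1058 and 1177 CPM in members and 25.8, 11.5, 6.83 and 44.1 CPM in the other barcodes (log2 fold 6.49 ± 0.54 (SE), edgeR adjusted p = 2.86e-04). Its level was nearly even over the 4 groups of members, and the groups did not overlap. GSO1 (AT4G20140), the receptor kinase that monitors the closure of the strip, had 181, 328, 727 and 211 CPM in members and 4.32, 10.8, 8.70 and 6.19 CPM elsewhere (log2 fold 5.92 ± 0.33 (SE), edgeR adjusted p = 8.13e-05), with the highest member value in PET111. AT1G61590, which RefSeq lists as a protein kinase, had 609, 617, 945 and 553 CPM in members and 1.50, 1.54, 0.980 and 2.52 CPM in the other barcodes (log2 fold 9.22 ± 0.48 (SE), edgeR adjusted p = 6.72e-05). All 4 groups of members were above every group of other barcodes for both kinases. TPST (AT1G08030), the enzyme that sulphates tyrosines of peptide hormones, was not called, at 5.91 ± 0.972 CPM in members and 9.11 ± 0.886 CPM in the other barcodes (SD, n = 4 libraries each). The same held for AT2G16385, at 1.80 ± 1.35 CPM in members and 1.48 ± 0.510 CPM elsewhere, and AT4G34600, at 19.9 ± 12.2 CPM in members and 18.0 ± 6.28 CPM elsewhere.

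Several genes for the oxidation of lignin precursors had very low levels in the other barcodes. The laccase LAC3 (AT2G30210), a copper enzyme that oxidises monolignols, had 410.1, 940.5, 1838 and 355 CPM in members and 0.133, 0.437, 0.808 and 0.153 CPM elsewhere (log2 fold 11.72 ± 0.28 (SE), edgeR adjusted p = 9.63e-06). The peroxidase AT5G66390, with the RefSeq synonym PRX72, had 2305, 2158, 3405 and 1695 CPM in members and 1.42, 1.47, 2.11 and 1.61 CPM elsewhere (log2 fold 10.95 ± 0.33 (SE), edgeR adjusted p = 1.01e-05). A further oxidase, the peroxidase AT1G44970, stood at 739 ± 388 CPM in members and 0.612 ± 0.196 CPM elsewhere (SD, n = 4 each). For these 3 genes every group of members was far above every group of other barcodes. RCI3 (AT1G05260) and AT4G11290, peroxidases of the same list, differed less, and the other barcodes also held them. RCI3 averaged 4493 ± 1157 CPM in members and 221 ± 129 CPM elsewhere (log2 fold 5.04 ± 0.41 (SE), edgeR adjusted p = 2.72e-04). AT4G11290 averaged 2315 ± 494 CPM in members and 162 ± 87.4 CPM elsewhere (log2 fold 4.53 ± 0.41). The NADPH oxidases, which supply superoxide at the wall, differed less. RBOH F (AT1G64060) had 180.4, 119.5, 167 and 189 CPM in members and 57.7, 35.2, 32.4 and 78.7 CPM in the other barcodes (log2 fold 2.24 ± 0.23 (SE), edgeR adjusted p = 6.69e-04). RBOHD (AT5G47910) had 11.8, 9.27, 26.1 and 6.28 CPM in members and 8.19, 5.76, 10.1 and 7.60 CPM elsewhere (log2 fold 1.08 ± 0.29 (SE), edgeR adjusted p = 0.0179). The RBOHD groups overlapped, and its call was lost without PET111 (log2 fold 0.81), without pCORTEX:GFP (0.97) and with members thinned to 2000 UMIs (0.20).

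Dirigent proteins steer the coupling of lignin radicals, and 4 of the list with enough UMIs were among the highest folds of the whole table. AT2G39430 had 739.7, 2162, 3379 and 866 CPM in members and 0.384, 0.766, 1.17 and 0.354 CPM in the other barcodes (log2 fold 11.76 ± 0.33 (SE), edgeR adjusted p = 9.63e-06). AT3G55230, AT3G24020 and AT4G13580 averaged 1554 ± 743, 1795 ± 576 and 1692 ± 885 CPM in members and 0.676 ± 0.446, 0.799 ± 0.278 and 0.916 ± 0.613 CPM elsewhere (SD, n = 4 each), with log2 folds of 11.76, 11.63 and 11.44. UCC1 (AT2G32300), a copper-binding uclacyanin of the wall, had 3236, 5539, 5774 and 3299 CPM in members and 23.0, 27.7, 7.03 and 31.6 CPM elsewhere (log2 fold 8.22 ± 0.66 (SE), edgeR adjusted p = 2.57e-04). UCC1 had a log2 fold of 7.63 without PET111. The fifth dirigent gene of the list, AT1G07730, had 1 UMI in members. In RefSeq it lies within the span of AT1G07740, which had 432 ± 442 CPM in members and 1.27 ± 0.193 CPM in the other barcodes (log2 fold 8.08 ± 0.91, SE), and which of the overlapping genes gave these UMIs was not tested. AT2G39430, AT3G24020 and AT4G13580 also overlap another RefSeq gene, as do GSO1 above and RWP1, MYB92, 4CL1, CYP98A3, CCR1, CCR2, MYB9, AT2G21100, GSTF2 and UBC20 below, and whether counting used the strand is not given in the sources used here.

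Genes of these families, in and outside the list, were looked up by their RefSeq product after the values were seen. Of 17 dirigent-like genes tested 11 were called higher and 1 lower, with a median log2 fold of 3.97. The 11 include AT2G39430, AT3G55230, AT3G24020 and AT4G13580 of the list above. Beyond the list, DIR6 (AT4G23690) had 3293 ± 2149.6 CPM in members and 250.3 ± 85.7 CPM in the other barcodes (log2 fold 3.97 ± 0.48, SE), and AT5G42655 had 355 ± 178 CPM in members and 0.994 ± 0.351 CPM in the other barcodes (log2 fold 8.88 ± 0.59, SE). The peroxidase family was split, with 17 of 48 tested genes higher and 17 lower. The higher ones include AT5G66390, AT1G44970, RCI3 and AT4G11290 of the list. AT3G32980 had 1079 ± 192 CPM in members and 23.2 ± 11.2 CPM in the other barcodes (log2 fold 6.14 ± 0.33, SE), whereas AT5G17820 had 189.9 ± 158 CPM in members and 862 ± 138 CPM in the other barcodes (log2 fold -2.17 ± 0.53, SE). Of 13 tested laccases 3 were higher, LAC3 among them, and 4 lower, with a median of -0.58. LAC17 (AT5G60020) and LAC11 (AT5G03260), which act in vascular lignin, were among the lower ones. In the wider CASP-like family (UPF0497) 8 of 28 tested genes were higher and 6 lower, with a median of -0.02. Over all genes 15.5% were higher and 22.3% lower, and the share of lower genes in this family was near that background.

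EXO70A1 (AT5G03540), a subunit of the vesicle-tethering exocyst, was above the other barcodes in each library but by less than 2-fold, and so was not called, with 36.3, 41.1, 47.3 and 40.0 CPM in members and 29.2, 32.5, 31.7 and 35.1 CPM elsewhere (log2 fold 0.84 ± 0.16, SE). AT4G15610, with the RefSeq synonym CASPL1D1, was not called, at 643, 121, 142 and 477 CPM in members and 533, 278, 291 and 757 CPM elsewhere. AT5G50150 was the one gene of the list called lower, at 3.33 ± 0.954 CPM in members and 9.74 ± 0.721 CPM elsewhere (log2 fold -1.11 ± 0.22 (SE), edgeR adjusted p = 0.00597). Without pSCR:GFP its log2 fold was -0.98, and with thinned barcodes it was -0.76, neither of which passed. AT3G06390 (CASPL1D2 in RefSeq) had 13 UMIs in members, too few for the test.

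**Figure D2:**
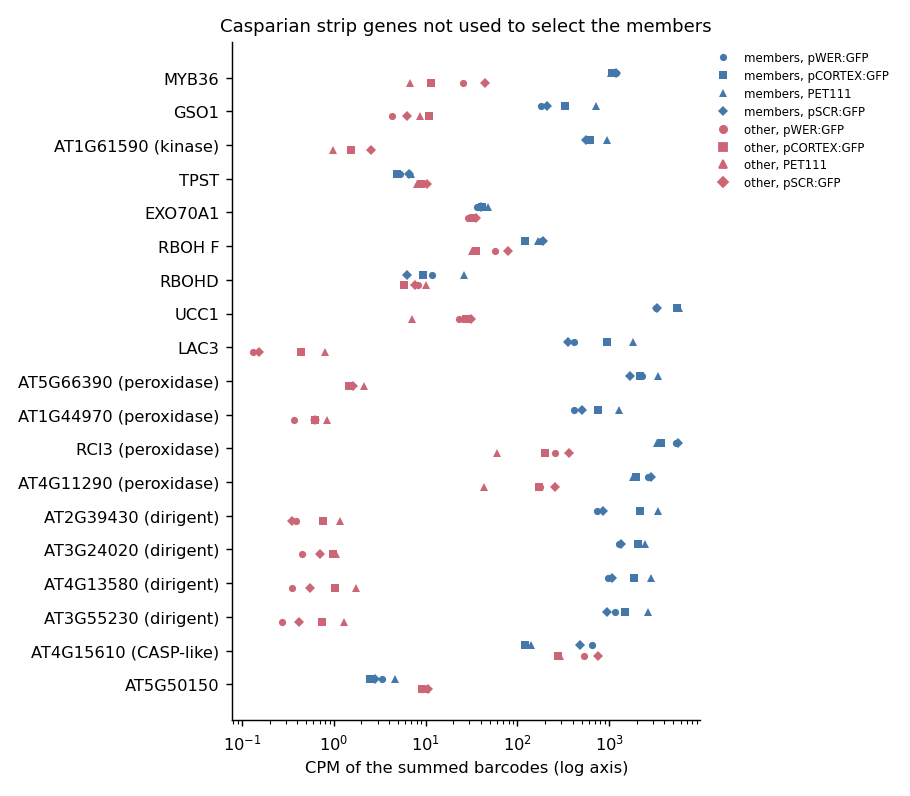
CPM of summed barcodes (x axis, log scale) of 19 Casparian strip genes that were not used to select members, with members in blue above the other eligible barcodes in red and 1 marker shape per library. The groups lie apart for MYB36, GSO1, LAC3, UCC1 and the dirigent genes and overlap for AT4G15610 and RBOHD.

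Regulators that pattern the ground tissue were higher in members for 9 of 12 tested genes and lower for none, with a median log2 fold of 2.63. SCR (AT3G54220), the GRAS factor that specifies the endodermis, had 13.4, 25.8, 37.7 and 16.7 CPM in members and 2.80, 5.98, 8.23 and 3.56 CPM elsewhere (log2 fold 2.68 ± 0.15 (SE), edgeR adjusted p = 8.75e-05), and the groups did not overlap. AT5G41920, listed in RefSeq with the synonym SCL23, averaged 15.2 ± 9.09 CPM in members and 1.48 ± 0.324 CPM elsewhere (log2 fold 3.67 ± 0.33, SE). The zinc finger factor AT1G14580 averaged 54.7 ± 13.2 CPM in members and 4.19 ± 0.946 CPM elsewhere (log2 fold 4.18 ± 0.30, SE). MYB68 (AT5G65790) had 167, 50.4, 43.0 and 169 CPM in members and 13.6, 8.02, 2.50 and 17.1 CPM elsewhere (log2 fold 3.90 ± 0.26 (SE), edgeR adjusted p = 1.55e-04), with the higher member values in pWER:GFP and pSCR:GFP. SHR (AT4G37650), which is made in the vasculature and moves as a protein into the endodermis, was not called, at 1.59, 3.88, 10.7 and 2.23 CPM in members and 2.79, 4.72, 5.73 and 3.31 CPM elsewhere. MGP (AT1G03840) and NUC (AT5G44160), zinc finger partners of SHR and SCR, were not called either, at 2.03 ± 1.24 and 4.55 ± 1.81 CPM in members and 4.88 ± 2.38 and 6.04 ± 1.91 CPM elsewhere.

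The monolignol pathway, which makes the lignin precursors from phenylalanine, was higher almost throughout. Of 16 tested genes 15 were called higher and none lower, with a median log2 fold of 3.21, and the list took 1.05%, 1.59%, 1.80% and 1.07% of the UMIs of members and 0.129%, 0.247%, 0.132% and 0.180% of those of the other barcodes. At the entry, PAL1 (AT2G37040) had 949.5, 1536, 2084 and 923 CPM in members and 110.4, 254, 114 and 149.9 CPM elsewhere (log2 fold 3.60 ± 0.34 (SE), edgeR adjusted p = 4.68e-04). PAL2 (AT3G53260) averaged 641 ± 485 CPM in members and 26.5 ± 14.4 CPM elsewhere (log2 fold 4.94 ± 0.31 (SE), edgeR adjusted p = 1.22e-04). Both phenylalanine ammonia-lyases were highest in the members of PET111. CCoAOMT1 (AT4G34050), the methyltransferase that leads to coniferyl units, had 4956, 7178, 6721 and 5049 CPM in members and 473, 985, 492 and 663 CPM elsewhere (log2 fold 3.72 ± 0.29 (SE), edgeR adjusted p = 2.20e-04). The cinnamyl alcohol dehydrogenase ATCAD4 (AT3G19450) averaged 1367 ± 469 CPM in members and 132 ± 50.1 CPM elsewhere (log2 fold 3.86 ± 0.28, SE). The reductase CCR2 (AT1G80820) averaged 56.0 ± 49.0 CPM in members and 1.72 ± 1.18 CPM elsewhere (log2 fold 5.52 ± 1.01, SE). CCR2 had a log2 fold of 6.27 without pWER:GFP, 4.57 without pCORTEX:GFP, 4.77 without PET111 and 6.45 without pSCR:GFP. FAH1 (AT4G36220), the hydroxylase that opens the branch to syringyl units, was the exception, with 4 UMIs over all members, while PAL3 (AT5G04230) had 0 UMIs, which allows at most 0.0720 CPM. In the other barcodes FAH1 had 125 and PAL3 6 of 760954453 UMIs, so both were scarce there too.

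Suberin genes were divided. Of 22 listed genes 12 had enough UMIs for the test, 9 were higher in members, 1 was lower and 2 were neither, with a median log2 fold of 4.15. RWP1 (AT5G41040), the feruloyl transferase also known as ASFT, had 396, 769.8, 745 and 323 CPM in members and 1.34, 2.46, 1.36 and 2.03 CPM elsewhere (log2 fold 8.71 ± 0.42 (SE), edgeR adjusted p = 5.09e-05). The lipid-transfer protein AT2G48130 averaged 263 ± 115 CPM in members and 1.60 ± 0.938 CPM elsewhere (log2 fold 7.92 ± 0.43, SE). The fatty acid elongase KCS20 (AT5G43760) averaged 167 ± 52.6 CPM in members and 25.9 ± 8.60 CPM elsewhere (log2 fold 3.18 ± 0.18, SE). The transcription factor MYB92 (AT5G10280) had 19.1, 37.6, 74.1 and 14.0 CPM in members and 0.712, 1.87, 1.80 and 0.806 CPM elsewhere (log2 fold 5.13 ± 0.27 (SE), edgeR adjusted p = 7.21e-05). MYB93 (AT1G34670) had 80 UMIs in members and 0 in all other barcodes, at least 487-fold higher against a floor of 3 UMIs over the group. Several genes for making or exporting the aliphatic monomers were at or near 0. GPAT5 (AT3G11430), CYP86A1 (AT5G58860), FAR1 (AT5G22500), ABCG2 (AT2G37360) and ABCG20 (AT3G53510) had 0 of 41667118 UMIs in members, which allows at most 0.0720 CPM each, and 13 of the 22 genes had 20 UMIs or fewer. In the other barcodes the 5 genes had 10, 1, 33, 24 and 3 of 760954453 UMIs, so they were nearly absent there too. The transporter ABCG1 (AT2G39350) was lower, at 12.6, 2.55, 3.11 and 19.7 CPM in members and 39.2, 9.97, 18.6 and 85.1 CPM elsewhere (log2 fold -1.58 ± 0.19 (SE), edgeR adjusted p = 0.00120).

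**Figure D3:**
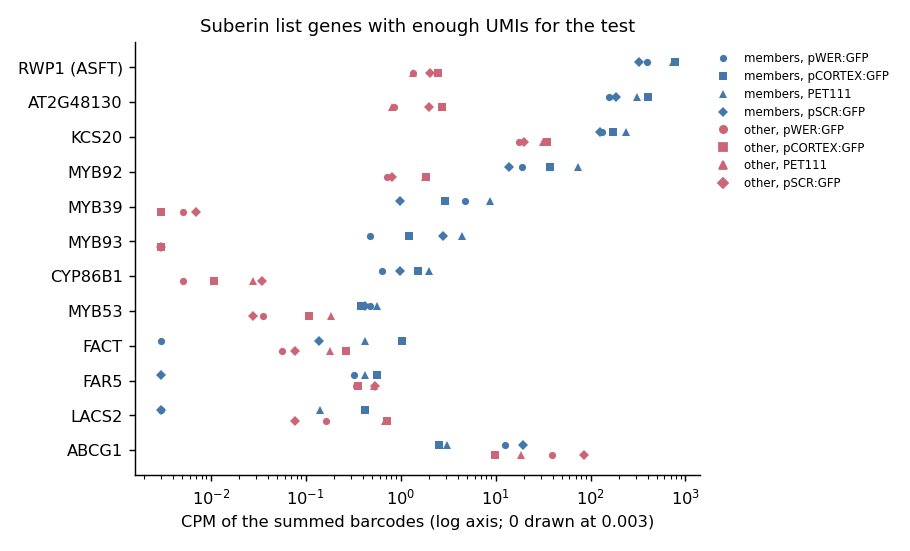
CPM of summed barcodes (x axis, log scale) of the 12 suberin genes that could be tested, with members in blue above the other eligible barcodes in red and 1 marker shape per library. RWP1, AT2G48130, KCS20 and MYB92 lie apart between the groups, whereas FACT, FAR5 and LACS2 stay near 1 CPM or below in both.

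Water channels were higher for 6 of 11 tested genes and lower for 1. The plasma membrane aquaporin PIP2A (AT3G53420) had 5616, 4861, 4699 and 6227 CPM in members and 537, 608, 339.9 and 902 CPM elsewhere (log2 fold 3.72 ± 0.29 (SE), edgeR adjusted p = 2.29e-04), PIP2B (AT2G37170) averaged 4807 ± 788 CPM in members and 539 ± 158 CPM elsewhere (log2 fold 3.67 ± 0.28, SE). The vacuolar GAMMA-TIP (AT2G36830) averaged 6199 ± 966 CPM in members and 767 ± 375 CPM elsewhere (log2 fold 3.61 ± 0.31, SE). NLM1 (AT4G19030), of the NOD26-like class, was lower, at 144, 242, 111 and 159 CPM in members and 848, 1207, 951 and 580.4 CPM elsewhere (log2 fold -1.98 ± 0.24 (SE), edgeR adjusted p = 0.00116). Of 8 tested ion and solute transporters 2 were higher, a share near the 15.5% of all genes, with a median log2 fold of 0.17. The organic cation transporter OCT3 (AT1G16390) had 52.9, 78.6, 85.4 and 58.5 CPM in members and 6.30, 9.53, 3.73 and 7.53 CPM elsewhere (log2 fold 3.86 ± 0.32 (SE), edgeR adjusted p = 2.88e-04). The zinc pump HMA4 (AT2G19110) averaged 9.44 ± 4.93 CPM in members and 5.79 ± 1.29 CPM elsewhere, with overlapping groups (log2 fold 1.09 ± 0.35 (SE), edgeR adjusted p = 0.0352). The HMA4 call was lost without pWER:GFP, pCORTEX:GFP or PET111 and in thinned barcodes, at log2 folds of 1.10, 1.09, 0.70 and 0.58. The boron exporter BOR1 (AT2G47160) and the phosphate exporter PHO1 (AT3G23430) were not called, at 5.45 ± 5.11 and 4.83 ± 3.16 CPM in members and 5.24 ± 3.85 and 3.41 ± 1.39 CPM elsewhere.

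Genes outside the lists were named by rank, as the 25 highest and 15 lowest folds among called genes of at least 50 CPM that moved the same way in each library. Of the 25, 7 were the LAC3, peroxidase and dirigent genes above. AT1G30750 had 1859.6, 4450.1, 6368 and 1847 CPM in members and 1.12, 2.45, 3.51 and 1.28 CPM elsewhere (log2 fold 11.19 ± 0.32 (SE), edgeR adjusted p = 1.01e-05), and AT2G40113, of the Pollen Ole e 1 family, had 675, 4687, 6568 and 874 CPM in members and 1.44, 2.10, 2.62 and 0.910 CPM elsewhere (log2 fold 10.80 ± 0.66 (SE), edgeR adjusted p = 1.07e-04). For both genes the members of pCORTEX:GFP and PET111 were above those of the other libraries. Transcription factors of the group were the bHLH factor B70 (AT4G21340), at 185, 1285, 1638 and 155 CPM in members and 0.0871, 0.852, 0.801 and 0.153 CPM elsewhere (log2 fold 11.14 ± 0.35 (SE), edgeR adjusted p = 1.12e-05), NF-YB5 (AT2G47810), at 105 ± 101 CPM in members and 0.0580 ± 0.0393 CPM elsewhere (log2 fold 11.05 ± 0.58, SE), and MYB9 (AT5G16770), at 57.4 ± 53.7 CPM in members and 0.0521 ± 0.0110 CPM elsewhere (log2 fold 10.11 ± 0.78, SE). NF-YB5 had a log2 fold of 10.45 without pCORTEX:GFP and MYB9 one of 10.73 without pWER:GFP and 9.40 without pCORTEX:GFP. Others were the receptor-like kinase AT2G15300, the LysM-domain protein AT3G52790, the dirigent-like gene AT2G21100 and the beta glucosidase BGLU17 (AT2G44480), with log2 folds of 10.87, 11.22, 10.81 and 10.70.

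The lowest folds included genes of growing and dividing tissue and of other cell layers. ENODL15 (AT4G31840), an early nodulin-like protein, had 2.71, 12.4, 7.20 and 0.558 CPM in members and 58.7, 77.5, 136 and 38.6 CPM in the other barcodes (log2 fold -3.59 ± 0.50 (SE), edgeR adjusted p = 0.00189). UBC20 (AT1G50490), a ubiquitin-conjugating enzyme of mitotic cells, had 14.0, 28.4, 13.4 and 17.2 CPM in members and 173, 144, 238 and 107 CPM elsewhere (log2 fold -2.70 ± 0.34 (SE), edgeR adjusted p = 0.00135). The peptide hormone precursor PSK1 (AT1G13590) averaged 24.0 ± 16.6 CPM in members and 181 ± 52.2 CPM elsewhere (log2 fold -2.66 ± 0.56, SE). All 5 markers of dividing cells were called lower, among them the cyclin CYCB1;1 (AT4G37490) at 0.680 ± 0.703 CPM in members and 4.56 ± 1.06 CPM elsewhere (log2 fold -2.17 ± 0.60 (SE), edgeR adjusted p = 0.0204). ENODL15 had a log2 fold of -4.30 without pCORTEX:GFP, PSK1 one of -2.04 without PET111 and CYCB1;1 one of -3.37 without pCORTEX:GFP. The CYCB1;1 call was lost without pWER:GFP (-1.86) and without pSCR:GFP (-2.19), and in thinned barcodes its log2 fold was 0.0198. The glutathione transferase GSTF2 (AT4G02520) had 172, 20.0, 25.7 and 275 CPM in members and 1211, 259.7, 800.3 and 702 CPM elsewhere (log2 fold -2.72 ± 0.56 (SE), edgeR adjusted p = 0.00668), the members being lower within each library although the ranges overlapped between libraries.

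To ask how members differ from ground tissue cells without strip transcripts, they were set against barcodes that had no UMI of the selecting genes but at least 1 of SCR or MGP, 298, 288, 124 and 221 per library with median depths of 30572, 41002, 46088 and 28461 UMIs. A UMI of SCR or MGP is more easily found in a deep barcode, and these barcodes were deeper than members. Markers of other cells moved too: those of dividing cells summed to 3.98 to 14.9 CPM in members and 24.0 to 51.9 CPM in these barcodes, those of cortex to 1.91 to 87.4 CPM in members and 45.3 to 183 CPM in these barcodes, and those of non-hair epidermis to 4.23 to 18.0 CPM in members and 20.2 to 126 CPM in these barcodes. Their part in the result was not tested. The compared barcodes are called SCR-positive for short, though the rule also admits barcodes with MGP and no SCR. Their cell type was not tested further, and not all of them need be ground tissue cells. Of 17008 genes tested 2967 (17.4%) were higher in members and 3801 (22.3%) lower. This and the next 2 comparisons use the same sums of members, so their results are not independent of one another.

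The strip genes were again far apart, with 15 of 21 tested list genes higher and 1 lower, and all 15 tested monolignol genes were higher (median log2 folds 5.40 and 2.85, beside -0.08 over all genes). MYB36 had 1172, 1060.2, 1058 and 1177 CPM in members and 17.3, 5.43, 10.9 and 54.8 CPM in SCR-positive barcodes (log2 fold 6.63 ± 0.60 (SE), edgeR adjusted p = 0.00126). MYB36 had a log2 fold of 7.23 without pSCR:GFP. NF-YB5 had 0 UMIs in the SCR-positive barcodes and was at least 2456-fold higher in members, against a floor of 3 UMIs over the group. The SCR-positive barcodes were chosen for no UMI of the selecting genes, which can also lower genes that vary with those. They were chosen for a UMI of SCR or MGP as well, which can raise genes that vary with these. The part of this choice in the folds of the strip genes, NF-YB5 and NUC was not tested. Lower in members were NUC, at 2.55, 5.11, 6.77 and 3.77 CPM in members and 14.6, 25.0, 13.9 and 18.2 CPM in SCR-positive barcodes (log2 fold -1.57 ± 0.29 (SE), edgeR adjusted p = 0.00599), and the growth coactivator AN3 (AT5G28640), at 2.71, 4.87, 2.96 and 1.12 CPM in members and 91.5, 95.6, 172 and 67.8 CPM in SCR-positive barcodes (log2 fold -4.76 ± 0.33 (SE), edgeR adjusted p = 7.36e-04). For AN3 every group of members was below every group of SCR-positive barcodes. SHR and JKD (AT5G03150) were not called, at 4.61 ± 4.19 and 18.8 ± 3.46 CPM in members and 6.98 ± 0.913 and 31.7 ± 13.0 CPM in SCR-positive barcodes.

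The cortex is the other layer of the ground tissue. Cortex barcodes had at least 2 of 4 cortex markers with a UMI and a sum of at least 500 CPM, and numbered 168, 272, 195 and 193, with median depths of 5989, 36773, 24425 and 7250.0 UMIs. Of 14282 genes tested 2665 (18.7%) were higher in members and 2634 (18.4%) lower. The monolignol pathway was divided, as 6 of 15 tested monolignol genes were higher in members, none lower and 9 neither, with a median log2 fold of 0.81, beside -0.05 over all genes. C4H (AT2G30490), the second enzyme, averaged 739 ± 72.2 CPM in members and 552 ± 107 CPM in cortex barcodes and was not called (log2 fold 0.38 ± 0.20 (SE), edgeR adjusted p = 0.143). PAL2 had 236, 610.3, 1331 and 385 CPM in members and 21.4, 89.3, 83.6 and 33.5 CPM in cortex barcodes (log2 fold 3.38 ± 0.26 (SE), edgeR adjusted p = 7.59e-05). CCR2 had 2318 UMIs in members and 2 in cortex barcodes. In the strip list 15 of 20 tested genes were higher in members, 1 lower and 4 neither. RBOH F was one of the 4, at 164 ± 31.0 CPM in members and 151 ± 78.6 CPM in cortex barcodes.

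Aquaporins went both ways against cortex, with 2 of 11 higher, 3 lower and 6 neither. These shares were near the 18.7% higher and 18.4% lower of all genes tested. PIP2;4 (AT5G60660) had 101, 252, 267 and 129.7 CPM in members and 1037, 1502, 1211 and 1015 CPM in cortex barcodes (log2 fold -2.83 ± 0.21 (SE), edgeR adjusted p = 6.84e-05), and PIP1;4 (AT4G00430) and PIP1;5 (AT4G23400) were lower in members by log2 folds of -2.21 and -2.18. GAMMA-TIP was higher, at 6199 ± 966 CPM in members and 2479.9 ± 829 CPM in cortex barcodes (log2 fold 1.31 ± 0.16 (SE), edgeR adjusted p = 4.04e-04). Patterning factors parted as well. SCR averaged 23.4 ± 10.9 CPM in members and 5.37 ± 3.18 CPM in cortex barcodes (log2 fold 2.05 ± 0.25 (SE), edgeR adjusted p = 4.29e-04) and SHR 4.61 ± 4.19 CPM in members and 0.253 ± 0.340 CPM in cortex barcodes (log2 fold 4.19 ± 0.77 (SE), edgeR adjusted p = 0.00287), both higher in members. SHR had 184 UMIs in members and 6 in cortex barcodes. SHR had a log2 fold of 4.94 without pCORTEX:GFP, 3.05 without PET111 and 4.83 without pSCR:GFP. JKD had 18.2, 14.1, 21.7 and 21.1 CPM in members and 61.0, 57.5, 66.7 and 47.1 CPM in cortex barcodes (log2 fold -1.70 ± 0.22 (SE), edgeR adjusted p = 5.36e-04). NUC had 2.55, 5.11, 6.77 and 3.77 CPM in members and 27.3, 41.3, 39.0 and 21.2 CPM in cortex barcodes (log2 fold -2.91 ± 0.23 (SE), edgeR adjusted p = 8.21e-05), both lower in members without overlap. Wall genes were among the lowest folds. The structural protein EXT3 (AT1G21310) had 175, 568, 985 and 245 CPM in members and 8756, 7030.1, 8945 and 9683 CPM in cortex barcodes (log2 fold -4.50 ± 0.44 (SE), edgeR adjusted p = 1.70e-04), and the polygalacturonase PG2 (AT1G70370) and the xylosidase BXL1 (AT5G49360) had log2 folds of -4.78 and -4.62. BXL1 had a log2 fold of -3.98 without pWER:GFP.

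Xylem vessels also lignify, but over their whole wall. Xylem barcodes had at least 3 of 7 xylem markers with a UMI and a sum of at least 500 CPM, and numbered 99, 177, 90 and 121. Of 13998 genes tested 2770 (19.8%) were higher in members and 2145 (15.3%) lower. Against xylem 14 of 15 tested monolignol genes were higher in members, with a median log2 fold of 2.84, beside 0.11 over all genes. 4CL1 (AT1G51680), the ligase that activates coumarate, had 183, 554, 891 and 196 CPM in members and 11.2, 42.0, 48.5 and 5.65 CPM in xylem barcodes (log2 fold 4.48 ± 0.28 (SE), edgeR adjusted p = 5.11e-05). CCR1 (AT1G15950) was not called, at 162, 206, 252 and 145 CPM in members and 275, 289, 335 and 274 CPM in xylem barcodes (log2 fold -0.39 ± 0.24 (SE), edgeR adjusted p = 0.231). Its paralog CCR2 had 0 UMIs in xylem barcodes and was at least 139-fold higher in members.

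The oxidases of the 2 cell types differed in both directions. LAC11 had 0.638, 0.899, 5.79 and 0 CPM in members and 1084, 807, 1968 and 786 CPM in xylem barcodes (log2 fold -9.57 ± 0.79 (SE), edgeR adjusted p = 1.21e-04), while LAC3 had 886 ± 687 CPM in members and 1.69 ± 3.19 CPM in xylem barcodes (log2 fold 10.17 ± 0.64 (SE), edgeR adjusted p = 5.08e-05). The peroxidase AT5G51890 averaged 4.39 ± 5.10 CPM in members and 3425 ± 1155 CPM in xylem barcodes (log2 fold -9.75 ± 0.89 (SE), edgeR adjusted p = 1.80e-04), lower in members, and AT5G66390 averaged 2391 ± 724 CPM in members and 59.0 ± 30.1 CPM in xylem barcodes (log2 fold 5.68 ± 0.35 (SE), edgeR adjusted p = 4.41e-05), higher in members. LAC11 had a log2 fold of -10.36 without PET111, LAC3 one of 9.29 without pCORTEX:GFP and 12.29 without PET111 and AT5G51890 one of -10.47 without PET111 and -9.14 without pSCR:GFP. EXO70A1, which also acts in vessels, was lower in members, at 41.2 ± 4.55 CPM in members and 153 ± 56.6 CPM in xylem barcodes (log2 fold -1.58 ± 0.19 (SE), edgeR adjusted p = 5.64e-04). SHR was lower in members too, at 1.59, 3.88, 10.7 and 2.23 CPM in members and 6.29, 14.5, 26.9 and 6.28 CPM in xylem barcodes (log2 fold -1.35 ± 0.27 (SE), edgeR adjusted p = 0.00582).

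**Figure D4:**
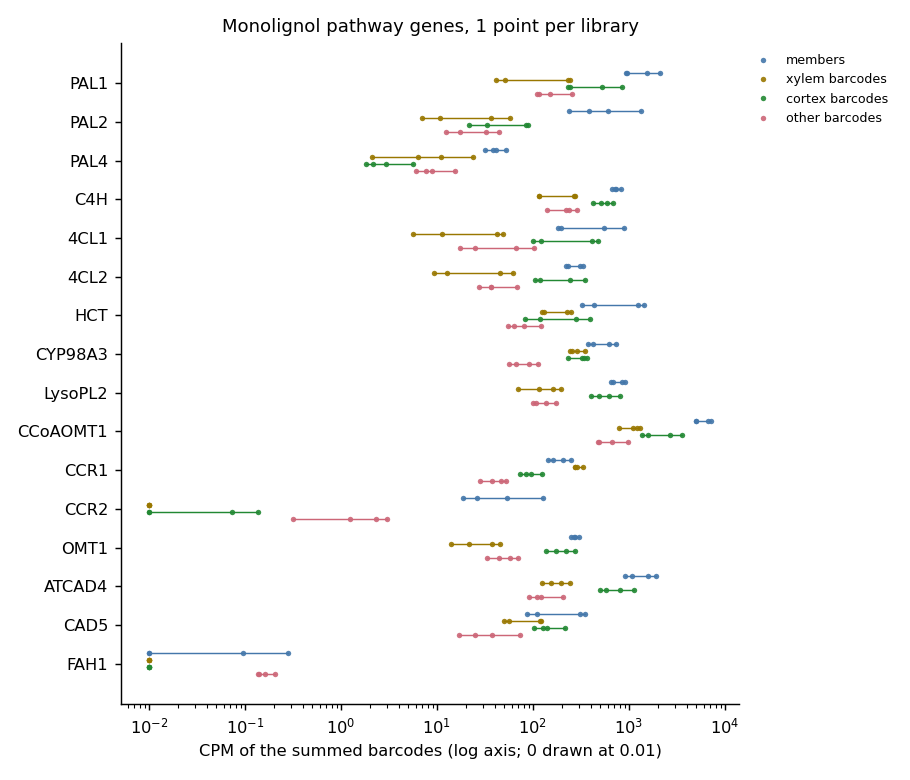
CPM of summed barcodes (x axis, log scale) of 16 monolignol pathway genes, with 1 point per library joined by a line, from top to bottom for members, xylem barcodes, cortex barcodes and all other barcodes. Members lie above xylem and other barcodes for most genes and near cortex barcodes for C4H, 4CL2 and OMT1, and FAH1 stays under 1 CPM in members.

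Members were also compared with one another by the summed level of the selecting genes. The borders of 3000 and 30000 CPM were chosen after the data were seen and cut a continuous spread, with 15, 32, 21 and 33 members within 1.25-fold of the lower border and 29, 49, 22 and 29 of the upper one. The low range held 73, 257, 91 and 104 members, the middle range 107, 175, 91 and 154 and the high range 65, 228, 130 and 111. Median depths were 10925, 30536, 20328 and 7956 UMIs in the high range and 9816, 10283, 10040.0 and 10134 UMIs in the low range. The composition of the sum, given as a description, differed with its size. CASP5 made up 55.5% ± 6.93 of the sum in the low range, 13.4% ± 4.25 in the middle and 9.84% ± 1.02 in the high range (SD, n = 4 libraries). CASP2 made up 1.75% ± 0.807, 5.64% ± 0.668 and 11.3% ± 0.686, and CASP1 20.9% ± 4.94, 46.0% ± 3.33 and 43.4% ± 2.32.

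Between the high and the low range 10971 genes were tested, and 1548 (14.1%) were higher and 2163 (19.7%) lower in the high range. The selecting genes were not tested. Of 19 tested strip genes 11 were higher in the high range, 3 lower and 5 neither, with a median log2 fold of 2.99, beside -0.14 over all genes. MYB36 was not among them. It had 1494, 766, 884 and 1382 CPM in the low range, 1302, 1673, 2039 and 1368 CPM in the middle range and 493, 882, 735 and 455 CPM in the high range (high over low, log2 fold -0.45 ± 0.38 (SE), edgeR adjusted p = 0.367). SCR was not called either, at 24.1 ± 14.7 CPM in the high and 27.8 ± 9.56 CPM in the low range (log2 fold 0.07 ± 0.25 (SE), edgeR adjusted p = 0.846), where the sign of the fold is that of the scaled values and not of the CPM means.

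Most of the strip genes that were called are described in 3 sets, drawn up after the values were seen. The sets do not hold every called gene. LAC3, the dirigent genes, AT5G66390 and AT1G44970 formed the first set, with a UMI of AT5G66390 in 30.1%, 25.3%, 30.8% and 23.1% and of LAC3 in 6.85%, 9.34%, 12.1% and 6.73% of low-range members. LAC3 had 1251, 2296, 3700.2 and 1349 CPM in the high range and 3.86, 7.42, 7.26 and 2.54 CPM in the low range (513-fold higher, edgeR adjusted p = 6.89e-05). AT2G39430 had 2399.7, 5256, 6779 and 3443 CPM in the high range and 13.0, 19.4, 20.0 and 14.1 CPM in the low range (log2 fold 8.36 ± 0.29 (SE), edgeR adjusted p = 6.89e-05). The second set, also higher in the high range, had larger levels in the low range. GSO1 had 440.0, 651, 1302 and 640.4 CPM in the high range and 65.6, 89.1, 126 and 68.8 CPM in the low range (log2 fold 3.42 ± 0.21 (SE), edgeR adjusted p = 2.46e-04), UCC1 averaged 8439 ± 1869 CPM in the high range and 1355 ± 171 CPM in the low range (log2 fold 2.99 ± 0.26, SE). AT1G61590 averaged 1482 ± 169.8 CPM in the high range and 116 ± 23.6 CPM in the low range (log2 fold 4.07 ± 0.19, SE). The third set ran the other way. RCI3 had 1104, 2075, 1467 and 1416 CPM in the high range and 9193, 4510.5, 4549 and 7671 CPM in the low range (log2 fold -1.69 ± 0.36 (SE), edgeR adjusted p = 0.0115). AT4G11290 had 686, 715, 474 and 747 CPM in the high range and 4938, 3069, 3223 and 4572 CPM in the low range (log2 fold -2.21 ± 0.19 (SE), edgeR adjusted p = 7.64e-04). For both peroxidases the groups did not overlap, and RCI3 fell just short of 2-fold in thinned members (log2 fold -0.99).

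Outside the strip list, 11 of 15 tested monolignol genes were higher in the high range and none lower. PAL2 had 593, 1259, 2406 and 1303 CPM in the high range and 36.6, 83.0, 149.7 and 50.4 CPM in the low range (log2 fold 4.53 ± 0.22 (SE), edgeR adjusted p = 1.26e-04). CCR2 had 2182 UMIs in the high range and 4 in the low range. LysoPL2 (AT1G52760), known as caffeoyl shikimate esterase, was not called, at 499 ± 203 CPM in the high range and 924 ± 98.6 CPM in the low range. OCT3 had 0.668, 9.34, 3.85 and 2.58 CPM in the high range and 132, 171, 215 and 105 CPM in the low range (log2 fold -4.92 ± 0.45 (SE), edgeR adjusted p = 8.63e-04), MYB68 averaged 35.7 ± 35.8 CPM in the high range and 193 ± 102 CPM in the low range (log2 fold -2.50 ± 0.33 (SE), edgeR adjusted p = 0.00250). PIP1;4 had 50.1, 36.9, 17.8 and 58.8 CPM in the high range and 447, 371, 380.1 and 338 CPM in the low range (log2 fold -2.98 ± 0.31 (SE), edgeR adjusted p = 0.00117). These 3 genes were lower in the high range in each library. The SAUR-like genes AT1G75590 and AT5G20820, members of a family of auxin-responsive growth genes, were lower by log2 folds of -4.89 and -4.70, and the arabinogalactan protein AGP18 (AT4G37450) by -4.44. OCT3 had a log2 fold of -5.56 without pCORTEX:GFP, AGP18 one of -5.02 without pCORTEX:GFP and AT5G20820 one of -5.30 without pSCR:GFP. Of the 3195 genes called higher in members than in other barcodes, 2616 could be tested between the ranges, of which 1071 were higher in the high range, 329 lower and 1216 neither. Over all genes tested between the ranges 14.1% were higher and 19.7% lower. The high-range cells are part of the member sums that gave the 3195 genes. That overlap can raise the count of higher ones, and its part was not tested.

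**Figure D5:**
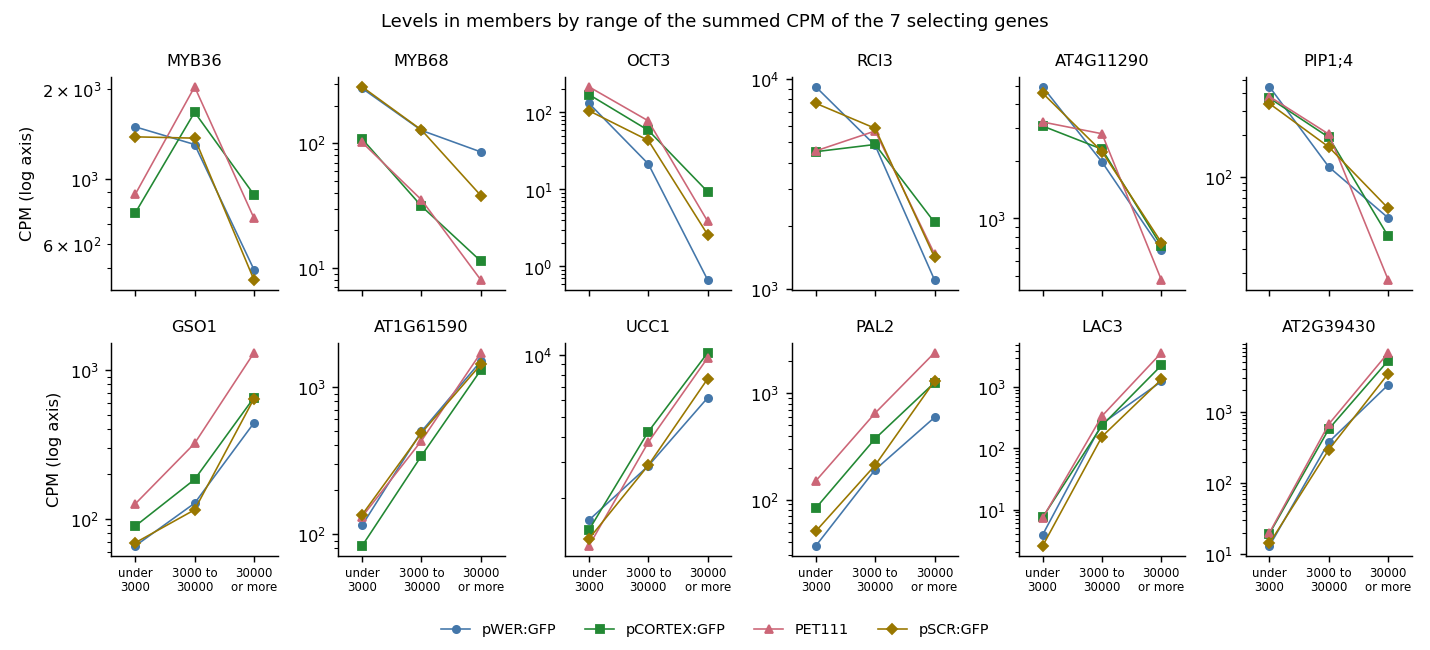
CPM of summed members (y axis, log scale) in the low, middle and high range of the summed level of the selecting genes (x axis, in CPM of that sum), 1 line per library, for 12 genes that did not define the ranges. MYB68, OCT3, AT4G11290 and PIP1;4 fall with the range in each library, GSO1, AT1G61590, UCC1, PAL2, LAC3 and AT2G39430 increase in each, and MYB36 peaks in the middle range in pCORTEX:GFP and PET111.

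Markers of other cell types moved with the ranges too, and their part in the differences was not tested. The cortex markers summed to 0.668 to 5.17 CPM in the high range and 1.93 to 195 CPM in the low range, the xylem markers to 0.592 to 1.94 CPM in the high range and 3.71 to 194 CPM in the low range, and those of root hair to 2.67 to 17.4 CPM in the high range and 5.90 to 121 CPM in the low range. Stress genes summed to 2388 to 3666 CPM in the high and 917 to 6059 CPM in the low range, and 2 of the 8 were called higher in the high range. Cell by cell, Spearman correlations of the selecting sum with the strip list were 0.72, 0.89, 0.93 and 0.73, and those with the monolignol list 0.53, 0.81, 0.81 and 0.58, over 245, 660, 312 and 369 members whose values share a library and a depth. The correlation with the stress list was -0.31, 0.39, 0.30 and -0.29, negative in the pWER:GFP and pSCR:GFP libraries and positive in the others.

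A second split asked whether members with suberin transcripts differed from the rest. Members with at least 3 suberin genes with a UMI and a suberin sum of at least 500 CPM numbered 83, 400, 198 and 121, against 162, 260, 114 and 248 without. They were deeper in every library, with medians of 20453, 29571, 21398 and 10404 UMIs, against 7781, 8676, 5458 and 5587 UMIs in the members without. Of 13047 genes tested 683 (5.23%) were higher in suberin-positive members and 1043 (7.99%) lower. When the split was made on members thinned to 2000 UMIs, the counts were 167 and 267, and the part of depth in this split was not tested. The count of lower genes was 269 without pCORTEX:GFP, 434 without pSCR:GFP, 600 without PET111 and 1330 without pWER:GFP. The suberin genes that made the split were not tested. RWP1, AT2G48130, KCS20 and MYB92 were the highest of them in suberin-positive members, at 917, 399, 224 and 44.5 CPM. GPAT5, CYP86A1, FAR1, ABCG2 and ABCG20 had 0 UMIs there, so the name suberin-positive covers only part of the list.

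Most strip genes were not called between the 2 classes of members. CASP1, which helped to select all of these members, averaged 12082 ± 5296 CPM in suberin-positive members and 12379 ± 4821 CPM in the others (SD, n = 4 each). The 7 selecting genes entered this test, where 1 was called higher and 6 neither, with a median log2 fold of 0.64. In the strip list 4 of 20 tested genes were higher, 1 lower and 15 neither. Over all genes tested 5.23% were higher and 7.99% lower, so the share of higher genes in the list was above that background. RCI3 had 7512, 4685, 3613 and 8726 CPM in suberin-positive members and 4027, 1697, 2272 and 3999.9 CPM in the others (log2 fold 1.30 ± 0.17 (SE), edgeR adjusted p = 0.00435). UCC1 averaged 5765 ± 845 CPM in suberin-positive members and 2940.2 ± 889 CPM in the others (log2 fold 1.27 ± 0.14 (SE), edgeR adjusted p = 0.00308). Of 15 monolignol genes 6 were higher, among them CYP98A3 (AT2G40890), the coumaroyl ester hydroxylase, at 712 ± 121 CPM in suberin-positive members and 323 ± 80.7 CPM in the others (log2 fold 1.42 ± 0.15 (SE), edgeR adjusted p = 0.00308). Outside the lists the bHLH gene AT4G05170 had 449.6, 1329, 1422 and 440.4 CPM in suberin-positive members and 37.6, 282, 309 and 78.7 CPM in the others (log2 fold 2.88 ± 0.24 (SE), edgeR adjusted p = 0.00261). Of 7 xylem markers 3 could be tested, 2 of which were lower in suberin-positive members and 1 neither. XCP2 (AT1G20850) was lower, at 2.81 ± 2.88 CPM in suberin-positive members and 22.1 ± 18.7 CPM in the others (log2 fold -2.99 ± 0.59 (SE), edgeR adjusted p = 0.0165), and MYB84 (AT3G49690) was lower at 1.82 ± 1.16 CPM in suberin-positive members and 11.5 ± 9.05 CPM in the others (log2 fold -2.30 ± 0.37 (SE), edgeR adjusted p = 0.00859). When the split was made on thinned members, RCI3, UCC1 and MYB84 had log2 folds of 0.87, 0.80 and -1.60, and none of these 3 was called. The UCC1 call was also lost with at least 5 selecting genes required (0.97) and with a sum of at least 1000 CPM (0.85). XCP2 had a log2 fold of -2.33 without pCORTEX:GFP. XCP2 was not called without pSCR:GFP (log2 fold -2.74).

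Each line carries its own reporter, so the reporter was described in 1 library at a time, with exact 95% intervals that cover counting error only. In pSCR:GFP, GFP had a UMI in 14.6% of members (11.2% to 18.7%) and 2.63% of the other barcodes (2.25% to 3.05%), at 12.6 and 2.89 CPM. The SCR-positive barcodes of this library, which were deeper than members, had a share of 14.5% (10.1% to 19.8%), at 6.59 CPM. The share in members was 21.2% in the low range and 10.8% in the high range, with intervals of 13.8% to 30.3% and 5.71% to 18.1%, which overlap. In pWER:GFP the share was 4.90% of members and 25.1% of the other barcodes, in pCORTEX:GFP 3.94% of members, 60.3% of cortex barcodes and 6.88% of the other barcodes, and in PET111 1.28% and 3.65% for YFP, with 30 of the 33 member UMIs in 1 barcode. Thinned to 2000 UMIs per barcode, GFP had a UMI in 2.44% of members and 0.666% of the other barcodes of pSCR:GFP, and in 0.816% and 7.78% of those of pWER:GFP.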

How the data were processed

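The 4 single-cell RNA libraries came from 1 reporter line each. The authors deposited UMI counts per gene and cell barcode as whole numbers. Cell Ranger 7.1.0 and Seurat are named per the submitters' processing notes, which give no role, and the genome build is not given in the sources used here. Symbols came from RefSeq, which held 32548 of the 32833 gene IDs.

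Barcodes were kept at 2000 UMIs or more and 10% organelle UMIs or less. UMIs were summed per library and cell group. Sums were tested with edgeR 4.0.16 (R 4.3.3, quasi-likelihood test, TMM scaling, default filter on low counts, library as block because both sums of a pair come from 1 library, Benjamini-Hochberg adjustment over all genes tested). Genes called had an adjusted p under 0.05 and at least 2-fold change. Levels are CPM of the sums, so that counts of cells and RNA per cell both enter. On simulated counts with 200 changed genes, the fit against other barcodes recovered 92% of 4-fold changes with 1 false call among 20890 genes. The simulated counts had a fixed dispersion, library effects shared by both groups and a far smaller share of changed genes than was called here. They therefore do not measure the false calls in the real counts.

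The genes named were list members, the 25 highest and 15 lowest folds against other barcodes, and the 8 highest and 8 lowest of the other comparisons. Members and lists were chosen with earlier results of these data known, and the comparison of ranges was added after the data were seen. Alternatives were DESeq2 1.42.0, its size factors, no filter, no block, thinning, other thresholds, removal of likely doublets and leaving out each library. No doublet caller was run. No sequences are shown, and 1 selecting gene is not reported here.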

Additional observations from a re-analysis of the deposited data

Results flagged for a closer look

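With 4 libraries per comparison, 1 library can stand apart from the other 3. Of 134 sets of log2 ratios of members over other barcodes, 4 had such a library (its gap to the nearest library, over the range, was above Dixon's 95% critical value), where chance gives about 1 in 20. The ratio was -7.87 in PET111 for the arabinogalactan protein AGP30 (AT2G33790), 4.52 in PET111 for OCT3 (AT1G16390), 0.0835 in PET111 for the stress factor WRKY33 (AT2G38470), and 3.27 in pWER:GFP for the heat shock protein HSP17.6II (AT5G12020). AGP30 had 9.56, 29.8, 0.565 and 21.9 CPM in members, so its ratio in PET111 rests on a level near 0.

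Barcodes that were not eligible also met the 7-gene rule. With fewer than 2000 UMIs there were 311 in PET111, 115 in pWER:GFP, 89 in pCORTEX:GFP and 76 in pSCR:GFP. With more than 10% organelle UMIs there were 244, 19, 47 and 28 in that order. PET111 had the largest number of both kinds. These barcodes entered no comparison.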

How the results depend on the processing

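Thinning every barcode to 2000 UMIs lowered the counts of called genes most often. The counts of higher and lower genes in members were then 1577 and 1946 against other barcodes, 953 and 970.0 against SCR-positive barcodes, 1076 and 1010 against cortex barcodes, and 1185 and 1184 against xylem barcodes. They were 341 and 559 for the suberin split and 561 and 611 for the high against the low range. Fewer UMIs enter by construction.

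Both sums of a pair come from 1 library, and the library was the block. Without the block the suberin split gave 181 higher and 20 lower genes, the ranges 1256 and 1560, and other barcodes 2703 and 3741. The suberin split also gave 167 and 267 genes when made on thinned members, 465 lower genes with at least 5 selecting genes required, 516 with a sum of at least 1000 CPM, and 491 to 783 higher and 269 to 1330 lower genes when 1 library was left out.

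The share of members was 2.77%, 6.28%, 6.88% and 3.94% with 5 genes required and 2.78%, 6.01%, 6.91% and 4.26% after thinning. With a sum of at least 1000 CPM it was 3.38%, 7.16% and 7.68% in the first 3 libraries, and in PET111 with 5000 UMIs required 7.77%. Thinning lowered the share of members with a reporter UMI to 0.816%, 0.606%, 0.321% and 2.44%.

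Of the genes named, a sign changed for CYCB1;1 (AT4G37490) in thinned barcodes (log2 fold 0.0198), and otherwise for folds that were not called. These were MYB36 (AT5G57620) between ranges when thinned (0.16), and SCR (AT3G54220) between ranges without likely doublets (-0.0595) and without PET111, over a range of -0.17 to 0.23 when 1 library was left out. Under an alternative the call was lost by 11 gene values in the suberin split, 15 in the comparison with other barcodes, 2 between the ranges and 1 against xylem barcodes. Thinning moved 47 of 87 named folds by over 1.5 times, 46 of them towards 0. Causes other than the number of UMIs or libraries were not tested. Groups of fewer than 100 barcodes, as in the xylem and low-range sums, limit what depth can show for weakly expressed genes.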
